A study of Mus musculus with 8 samples.

Results

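Eph receptors and ephrins were followed across the neuronal subtypes of the mouse stellate ganglion. The 10 genes were picked by name from 19224 gene columns, with earlier results of these data known, and they comprise the EphA receptors Epha3, Epha4, Epha5 and Epha7, the EphB receptor Ephb2, the ephrin-A ligands Efna3 and Efna5 and the ephrin-B ligands Efnb1, Efnb2 and Efnb3. Another 11 genes of the family were measured and are given by level only, and Epha6 was not analysed here. The choice of the 10 genes rested on their levels across the same subtypes, so differences between subtypes are given as a description, with no test.

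Eph receptors form the largest family of receptor tyrosine kinases, and their ligands, the ephrins, are themselves tied to the membrane, so signalling needs contact between cells. EphA receptors mostly bind ephrin-A ligands, which are held by a lipid anchor, and EphB receptors mostly bind ephrin-B ligands, which span the membrane, although EphA4 binds both. Binding signals forward into the cell with the receptor and in reverse into the cell with the ligand, and the usual response of a growing axon is to turn away. In the developing nervous system the family is known for guiding axons, for setting topographic maps and for sorting cells at boundaries.

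The mice were C57BL6/J males of 8 to 10 weeks in a single condition. All mice had received AAV-GFP in the heart wall and AAV-tdTomato in the forepaws as retrograde tracers, and no uninjected group was used here. Left and right ganglia were dissociated together and single cells were captured with the 10x Genomics Chromium system, which gives each captured RNA molecule 1 unique molecular identifier (UMI). Levels are therefore given as UMIs per 10000 UMIs of a neuron, and were not divided by transcript length since a molecule counts once whatever its length. The authors placed 1303 neurons of 8 mice in 8 subtypes, namely the noradrenergic NA1a (316 neurons), NA1b (311), NA1c (239), NA2 (175) and NA3 (99), the cholinergic Ach1 (64) and Ach2 (62) and the glutamatergic Glut (37). A total of 5 mouse names matched 1 sample each (mouse 1 to mouse 5, all of batch 2), and they hold 1002 neurons and 916296 to 1196621 UMIs per mouse. The other 3 names (301 neurons) count in pooled values alone.

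Values by subtype are mean ± SD over mice with at least 10 neurons of the subtype, which is 5 mice for NA1a, NA1b, NA1c and NA2, 3 for NA3, 2 for Ach2, 1 for Ach1 and none for Glut. Median depth was 6524.5 UMIs per neuron in NA1a and 6773 in NA3 but 2461 to 3285 in NA1b, NA1c, NA2 and Glut. It was 4414.5 in Ach2 and 2206.5 in Ach1. The labels were checked against marker genes. Dbh and Th, enzymes of noradrenaline synthesis, were present in every subtype, while Chat, the enzyme that makes acetylcholine, was at 0 in all neurons labelled Ach1 and at 1.10 ± 0.292 in Ach2 (n = 2). The 4 cholinergic markers, Chat among them, summed to 5.46 UMIs per 10000 in Ach1 (1 mouse). The same sum ran from 0.0325 to 2.58 over the NA1a mice and was 49.8 ± 12.8 in Ach2 (n = 2). Of the 4, 2 were above their NA1a level in Ach1. The 4 noradrenergic markers, Dbh and Th among them, summed to 58.0 UMIs per 10000 in Ach1 (1 mouse). They summed to 38.4 ± 6.55 in NA1a (n = 5, highest mouse 46.6) and 10.3 ± 2.95 in Ach2 (n = 2). Ach1 thus lacked Chat, and both its cholinergic and its noradrenergic sum were above every NA1a mouse. Its label is kept here as a name only. Slc17a6, the vesicular glutamate transporter, was at 0.554 UMIs per 10000 over the pooled Glut neurons. Satellite glia markers summed to 315 ± 113 UMIs per 10000 in NA3 (n = 3), with all 10 above their NA1a level. They summed to 132 in Ach1 (1 mouse) and to 9.90 ± 1.18 in NA1a (n = 5). The 4 neuron markers (Snap25, Syt1, Pcsk1n and Prph) summed to 40.6 ± 6.46 in NA3 (n = 3) against 89.6 ± 7.76 in NA1a (n = 5). Their mean sum was 83.0 in NA1b, 82.4 in NA1c and 99.1 in NA2. The noradrenergic markers summed to 22.8 ± 3.57 in NA3. In the matched mice, 21 cell barcodes occurred in 2 to 5 mice each, which touches 73 of 1002 neurons (7.29%). Of these, 55 were among the 150 NA2 neurons (36.7%), 15 among the 46 Ach2 neurons (32.6%) and 3 among the 17 Glut neurons, with 0 in the other subtypes. Of the 21 barcodes, 20 had the same subtype in all their mice. In NA2 the median correlation of log levels was 0.499 between neurons of the same barcode in different mice. It was 0.455 between different recurring barcodes and 0.483 between neurons without one. In Ach2 these medians were 0.489, 0.464 and 0.404. Why barcodes recurred, and whether the NA2 mice are independent replicates, was not tested. The NA2 and Ach2 levels of Epha5 and Efna5 and the NA2 differences are given with and without these neurons.

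Among the 10 genes, 1 gene held most of the UMIs. Epha5, a receptor for ephrin-A ligands, held 8321 of the 9568 UMIs of the 10 genes (87.0%), and Efna5, one of its ligands, held 710 (7.42%). The other 8 genes ranged from 7 UMIs (Efna3) to 151 (Ephb2). Family genes outside the 10 are not in these shares, among them Epha10 with 678 UMIs and Ephb6 with 192. Only Epha5 and Efna5 passed the minimum of 0.5 UMIs per 10000 used for comparisons. Epha5 lies at chr5:84054761-84417818 and Efna5 at chr17:62602957-62881317, both on the minus strand of GRCm38.p6.

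The 250 bases before the annotated start of these genes, from RefSeq (GRCm38.p6), are printed 5′ to 3′ on the gene's strand, since these are the members whose levels the comparisons rest on. Capitals mark the GC box letters GGGCGG, read on both strands, and the homeodomain core TAATTA, which is its own reverse complement.
Epha5, chr5:84417383-84417632: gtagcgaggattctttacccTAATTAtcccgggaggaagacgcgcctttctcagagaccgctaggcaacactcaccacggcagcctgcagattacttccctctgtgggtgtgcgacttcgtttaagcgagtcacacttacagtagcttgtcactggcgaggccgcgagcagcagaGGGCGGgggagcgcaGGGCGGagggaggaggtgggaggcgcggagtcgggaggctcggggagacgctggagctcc
Efna5, chr17:62881318-62881567: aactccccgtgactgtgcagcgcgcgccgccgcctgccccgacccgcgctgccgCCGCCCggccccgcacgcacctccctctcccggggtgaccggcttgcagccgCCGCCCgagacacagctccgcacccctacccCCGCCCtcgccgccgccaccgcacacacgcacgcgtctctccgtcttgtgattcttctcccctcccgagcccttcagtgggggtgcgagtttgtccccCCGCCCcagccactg
The Epha5 region held 20 CpG, 2 GGGCGG and 1 TAATTA, and the Efna5 region held 32 CpG, 4 GGGCGG and 0 TAATTA. Over the start regions of 27025 genes of the same length the median was 6 CpG, 32.9% held GGGCGG and 4.90% held TAATTA. RefSeq's Epha5 gene reaches further upstream than the start used, so its window lies within the gene's extent, while the Efna5 window lies just outside its gene. A match of letters is a description of the window, and start regions were not measured in this experiment.

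Epha5 was highest in NA1a and NA1c. In NA1a it was 17.4, 16.2, 28.3, 24.8 and 21.5 UMIs per 10000 in mice 1 to 5, a mean of 21.6 ± 5.03 (n = 5). In NA1c it was 8.36, 14.2, 21.9, 18.0 and 12.9, a mean of 15.1 ± 5.12. In NA1b it was 5.76, 5.65, 7.79, 7.65 and 4.78, a mean of 6.33 ± 1.33. Every NA1a and every NA1c mouse was above every NA1b mouse, while NA1a and NA1c overlapped, although NA1a was the higher of them within each of the 5 mice.

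Below these came NA3, Ach2 and NA2, which lay close to NA1b. Epha5 was 4.39, 6.58 and 5.34 UMIs per 10000 in NA3 in mice 2, 4 and 5, a mean of 5.44 ± 1.10 (n = 3). In NA2 it was 5.38, 3.41, 6.52, 3.57 and 6.71, a mean of 5.12 ± 1.57 (n = 5), and 5.52 ± 2.26 (n = 4) without recurring barcodes. In Ach2 it was 2.56 and 7.83 in mice 1 and 4, a mean of 5.19 ± 3.72, and 6.61 ± 4.64 without recurring barcodes. NA1b, NA2, NA3 and Ach2 overlapped with each other and did not differ beyond their spread. The lowest values were 2.79 in the neurons labelled Ach1, 55 of whose 62 matched neurons came from mouse 4, and 2.49 in Glut pooled over all its neurons.

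**Figure D1:**
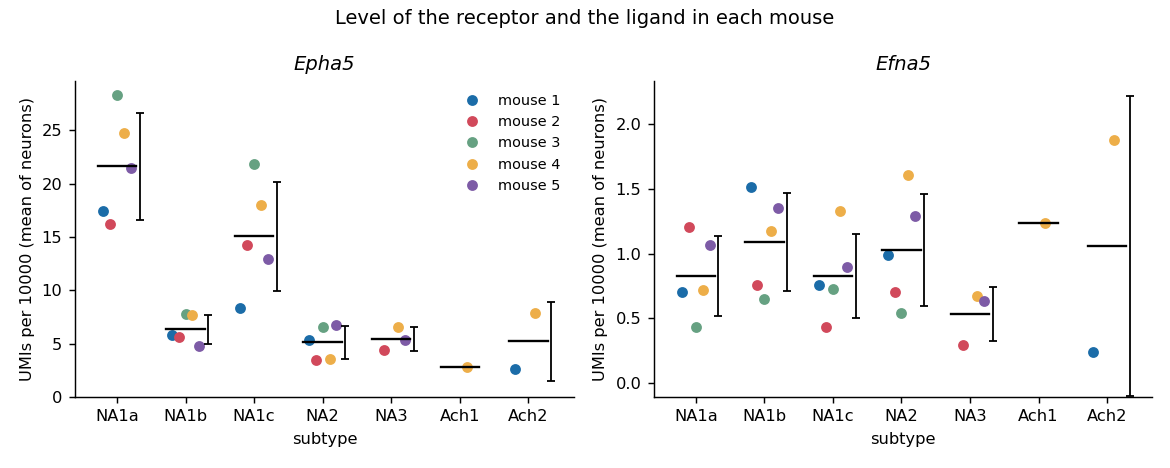
Mean UMIs per 10000 of Epha5 (left) and Efna5 (right) in each mouse (coloured points) by subtype, with the mean over mice as a line and the SD as a bar; mice with at least 10 neurons of a subtype are shown. Epha5 in NA1a (16.2 to 28.3) and NA1c (8.36 to 21.9) sits above NA1b (4.78 to 7.79) in every mouse, while Efna5 overlaps between the subtypes.

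On the log2 scale, with 0.1 added to each value, Epha5 was 1.75 ± 0.25 higher in NA1a than in NA1b, higher in 5 of 5 mice and without overlap. Of all genes past the minimum level, 8.28% did not overlap between NA1a and NA1b in either direction. NA1b was below NA1c by −1.19 ± 0.38, lower in 5 of 5 mice and without overlap, where 2.95% of genes did not overlap. NA1a exceeded NA1c by 0.56 ± 0.34 with overlap, where 9.36% of genes did not overlap. Across the 10 alternatives the NA1a to NA1b difference stayed between 1.62 and 1.85 and kept its lack of overlap in each.

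NA2 stood below NA1a by −2.08 ± 0.45 and below NA1c by −1.53 ± 0.72 on the same scale, each lower in 5 of 5 mice and without overlap. Between NA2 and NA1a 35.0% of genes did not overlap, and between NA2 and NA1c 42.0%, so a lack of overlap was common among all genes here. NA2 differed from NA1b by −0.33 ± 0.60, with overlap, where 41.7% of genes did not overlap. Without recurring barcodes (n = 4) the NA2 differences were −2.11 from NA1a, −1.46 from NA1c and −0.30 from NA1b, and the shares of all genes were 32.7%, 37.5% and 37.5%. NA3 was below NA1a by −1.92 ± 0.066 (n = 3), lower in 3 of 3 mice and without overlap. In this pair 27.7% of genes did not overlap. The neuron markers were also lower in NA3 than in NA1a, as given above. Whether the Epha5 difference goes with them was not tested.

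The order of Epha5 was not the order of Npy, the co-transmitter neuropeptide by which the study grouped these neurons. NA1a had 82.4 ± 8.26 UMIs of Npy per 10000, followed by NA1c with 43.3 ± 5.11, NA2 with 40.9 ± 8.45 and NA1b with 8.95 ± 3.61 (n = 5 each), and NA2 had 48.8 ± 12.6 (n = 4) without recurring barcodes. NA1a, NA1c and NA1b stood in the same order for both genes. NA2, with Npy at the NA1c level, had Epha5 at the NA1b level.

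Epha5 was among the more abundant transcripts of NA1a and NA1c, where it ranked 25 and 29 of 19224 genes by UMIs. It ranked 150 in NA1b, 184 in NA3 and 337 in NA2. At least 1 UMI was found in 304 of 316 NA1a neurons (96.2%), 221 of 239 NA1c neurons (92.5%), 230 of 311 NA1b neurons (74.0%), 76 of 99 NA3 neurons (76.8%) and 111 of 175 NA2 neurons (63.4%; 79 of 120 without recurring barcodes). Neurons without a UMI were the shallower ones, with a median of 2149 UMIs against 4070.5 in NA1b and 2267 against 6724 in NA1a. After each neuron was thinned to 2000 UMIs, 93.5% of NA1a, 92.9% of NA1c, 62.1% of NA1b, 52.2% of NA3 and 50.8% of NA2 neurons still held a UMI. Only neurons were in the table, so no cell type known to lack Epha5 gave a background share, and the lowest share was 31 of 64 in Ach1 (48.4%; median depth 2206.5 UMIs).

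Within a subtype the neurons varied widely. The quartiles over NA1a neurons were 13.6, 21.1 and 29.3 UMIs per 10000, and the highest neuron had 53.7. The quartiles were 2.53, 4.75 and 8.02 in NA1b, with a highest value of 43.7, and 5.94, 12.3 and 18.6 in NA1c. The highest NA1c value was 105.7, in 1 of the 20 NA1c neurons of mouse 3, the mouse with the highest NA1c mean. Some NA1b neurons therefore reached NA1a levels, while the upper quartile of NA1b lay below the lower quartile of NA1a. After thinning, the variance of Epha5 counts was 1.70 ± 0.36 times their mean in NA1a and 2.31 ± 0.88 times in NA1b (n = 5 each). In NA1c it was 2.22 ± 1.72 times, from 0.746 to 5.14 over mice (n = 5). Counting error alone gives 1.

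**Figure D2:**
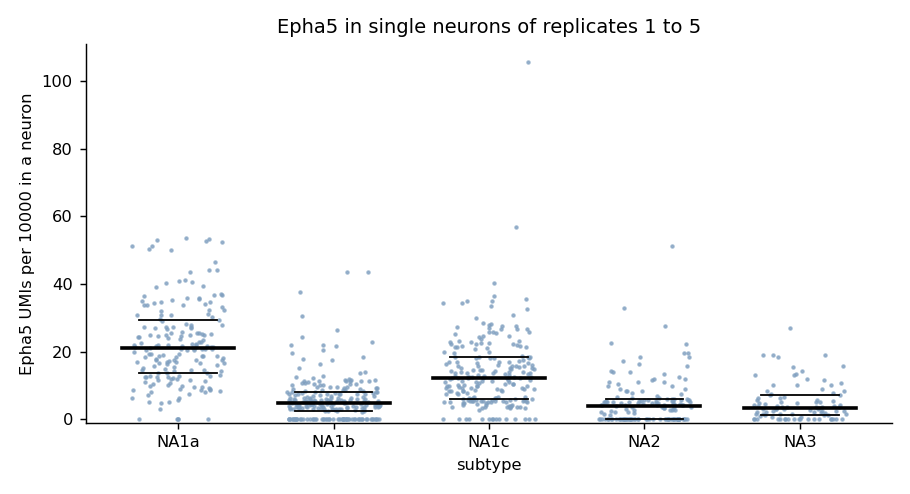
Epha5 UMIs per 10000 in single neurons of mice 1 to 5 by subtype, each point 1 neuron, with the median as a thick line and the quartiles as thin lines. The NA1a cloud is centred on 21.1 and the NA1b cloud on 4.75, with single NA1b neurons up to 43.7.

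Efna5, which encodes ephrin-A5, a ligand of EphA5, showed no such pattern. In NA1a it was 0.704, 1.20, 0.433, 0.719 and 1.06 UMIs per 10000 in mice 1 to 5, a mean of 0.824 ± 0.307. In NA1b it was 1.51, 0.756, 0.646, 1.17 and 1.36, a mean of 1.09 ± 0.376. Mice of both subtypes ran from below to above 1, and the difference of −0.37 ± 0.60 on the log2 scale was within the spread over mice.

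The other subtypes lay in the same range, with Efna5 at 0.828 ± 0.325 in NA1c, 1.03 ± 0.431 in NA2 (1.32 ± 0.614 without recurring barcodes, n = 4), 1.06 ± 1.16 in Ach2 (0.979 ± 0.948 without them, n = 2) and 1.23 in Ach1 (1 mouse). NA3, where the neuron markers were lower as well, was lowest at 0.535 ± 0.208 (n = 3). It was below NA1a by −0.82 ± 0.83 on the log2 scale and lower in 3 of 3 mice, with overlap. Without mouse 3, whose NA1a value was the lowest, Efna5 no longer overlapped between NA3 and NA1a. On the log2 scale NA2 differed in Efna5 by 0.26 ± 0.63 from NA1a, −0.11 ± 0.35 from NA1b and 0.26 ± 0.37 from NA1c. Without recurring barcodes (n = 4) these differences were 0.71 ± 0.64, 0.10 ± 0.41 and 0.39 ± 0.60, all with overlap. NA2 was then above NA1a in 4 of 4 mice. Efna5 was found in 462 of 1303 neurons (35.5%), from 56 of 239 in NA1c (23.4%) to 149 of 316 in NA1a (47.2%). After thinning to 2000 UMIs the shares were 13.7% and 20.8%, and ran from 8.89% in NA3 to 25.9% in Ach2.

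UMIs of receptor and ligand were found together in some neurons. After thinning, 14.7% ± 5.48 of NA1a, 11.1% ± 2.63 of NA1b and 14.2% ± 7.03 of NA1c neurons (n = 5 mice each) held a UMI of both, against 6.35% ± 5.11 in NA2 (n = 4 mice with such neurons). In the same order Epha5 was held by 95.1%, 62.2%, 94.4% and 53.4%, and Efna5 by 16.4%, 18.8%, 15.3% and 16.1%. The mean Spearman correlation of their counts within mice was 0.014, −0.055, −0.13 and −0.037. It was 0.30 in NA3 (n = 3) and 0.26 in Ach2 (n = 2). The lower NA2 share stood beside a lower Epha5 share. No pairing of receptor and ligand is read from these values.

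Summed by class, the 4 EphA receptors reached 21.9 ± 4.96 UMIs per 10000 in NA1a, 15.2 ± 5.21 in NA1c, 6.42 ± 1.29 in NA1b, 5.13 ± 1.59 in NA2 and 5.61 ± 1.29 in NA3, nearly all of it Epha5. Among the noradrenergic subtypes, ephrin-A ligands summed to between 0.535 in NA3 and 1.12 in NA1b. Ephrin-B ligands summed to 0.685 ± 0.481 in NA3 (n = 3), 0.421 ± 0.143 in NA1b, 0.196 ± 0.080 in NA1a, 0.180 ± 0.177 in NA1c and 0.084 ± 0.136 in NA2. In every subtype with replicates the EphA sum was thus several times the ephrin-A sum, and the ephrin-B sum was below the ephrin-A sum in NA1a, NA1b, NA1c and NA2.

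**Figure D3:**
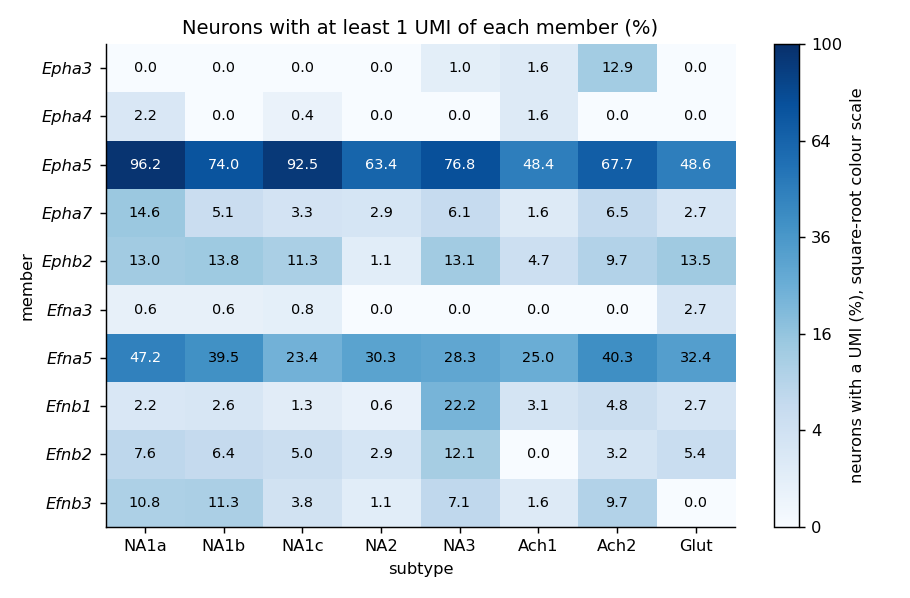
Percent of neurons with at least 1 UMI of each of the 10 genes (rows) by subtype (columns), over all 1303 neurons, on a square-root colour scale and without thinning. Epha5 and Efna5 are the only rows with shares above 23% in any subtype; NA3 stands out for Efnb1 (22.2%) and Ach2 for Epha3 (12.9%).

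The other 8 genes were too sparse for the comparisons between subtypes, and their values rest on few UMIs. Ephb2, the EphB receptor among them, was found in 41 of 316 NA1a neurons (13.0%), 43 of 311 NA1b neurons (13.8%) and 27 of 239 NA1c neurons (11.3%) but in 2 of 175 NA2 neurons (1.14%; exact 95% interval 0.139% to 4.07%). In NA2 it was 0 in mice 1, 2, 4 and 5 and 0.0470 UMIs per 10000 in mouse 3, while NA1c, at a similar median depth (2685 against 2461 UMIs), ranged from 0.171 to 0.408. NA2 was below NA1a, NA1b and NA1c in every mouse without overlap, also without recurring barcodes, though Ephb2 was under the minimum level. After thinning, 4.55% of NA1a, 4.44% of NA1b and 6.59% of NA1c neurons held a UMI, against 1.61% of NA2 neurons. With no minimum, 12.7%, 13.8% and 12.7% of all genes did not overlap in these 3 pairs, genes with few or no UMIs included. Among genes past the minimum level the shares were 35.0%, 41.7% and 42.0%, so a lack of overlap was common.

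Efnb3, a ligand of the ephrin-B class, was highest in NA1b. It was 0.218, 0.310, 0.161, 0.338 and 0.206 UMIs per 10000 in NA1b in mice 1 to 5 (mean 0.246 ± 0.074). It was 0.140, 0.078, 0.057, 0.125 and 0.062 in NA1a (0.092 ± 0.038) and 0.049, 0.147, 0, 0 and 0.085 in NA1c (0.056 ± 0.062). Every NA1b mouse was above every NA1a and NA1c mouse, with 1.21 ± 0.58 between NA1b and NA1c on the log2 scale. With no minimum level, 2.98% of all genes did not overlap between NA1a and NA1b and 1.41% between NA1b and NA1c. These shares include genes with few or no UMIs. Among genes past the minimum level they were 8.28% and 2.95%. In the same 5 mice a UMI was found in 11.7% ± 1.92 of NA1b and 8.03% ± 4.04 of NA1a neurons, and after thinning in 6.03% ± 1.69 and 3.22% ± 2.02. Pooled with the unmatched names the shares were 35 of 311 (11.3%) and 34 of 316 (10.8%).

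Efnb1, another transmembrane ligand, had its highest level in NA3. It was 0.310, 0.786 and 0.198 UMIs per 10000 in NA3 in mice 2, 4 and 5 (0.431 ± 0.312), against 0 in mice 1 to 4 and 0.048 in mouse 5 in NA1a. A UMI was found in 22 of 99 NA3 neurons (22.2%; exact interval 14.5% to 31.7%) and in 7 of 316 NA1a neurons (2.22%) at similar median depth, and after thinning in 5 of 90 and 5 of 308. After thinning it was also found in 2 of 38 Ach1 and 6 of 248 NA1b neurons, so the contrast was smaller there. Efnb1 was under the minimum level, and the share of all genes without overlap between NA3 and NA1a with no minimum is given below with the alternatives. Glia markers were also far higher in NA3, as given above, and fibroblast markers summed to 18.2 ± 11.3 in NA3 against 0.937 ± 0.227 in NA1a. When the NA3 neurons of each mouse were split at the median of the summed glia markers, Efnb1 was 0.366 in the lower and 0.456 in the upper part (means over 3 mice, 37 neurons each), with the upper part higher in 2 of 3 mice. Whether RNA of other cells carried the Efnb1 signal was not tested. Over the same split Epha5 was 7.04 ± 2.33 in the lower and 3.85 ± 1.86 in the upper part, with the upper part higher in 1 of 3 mice.

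**Figure D4:**
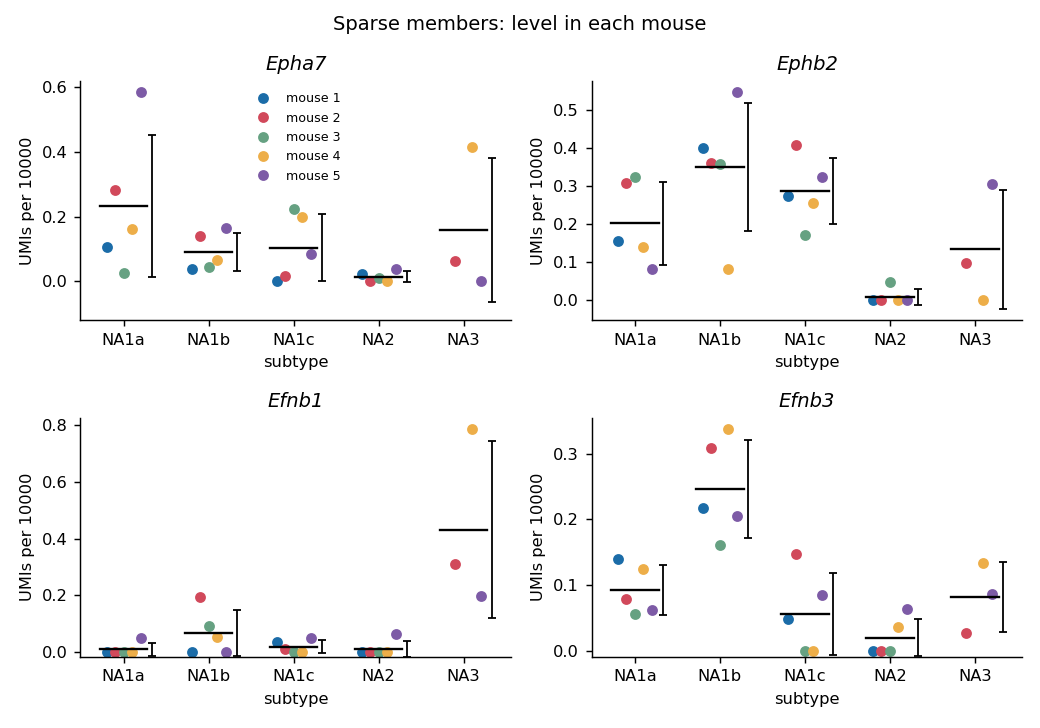
UMIs per 10000 of Epha7, Ephb2, Efnb1 and Efnb3 in each mouse (coloured points) by subtype, with the mean over mice as a line and the SD as a bar, each panel on its own scale. Efnb3 in NA1b (0.161 to 0.338) sits above NA1a and NA1c, Ephb2 in NA2 is at 0 in all mice but 1, and Efnb1 is highest in NA3.

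Epha7, an EphA receptor, was found in 46 of 316 NA1a neurons (14.6%), 16 of 311 NA1b neurons (5.14%), 8 of 239 NA1c neurons and 5 of 175 NA2 neurons. Its level in NA1a was 0.105, 0.283, 0.025, 0.162 and 0.586 UMIs per 10000 in mice 1 to 5, so that NA1a (0.232 ± 0.219) overlapped with NA1b (0.091 ± 0.058). After thinning, the share of neurons with a UMI was 3.31% ± 5.24 in NA1a and 4.12% ± 4.01 in NA1b (n = 5 mice each), against 12.4% ± 6.70 and 5.50% ± 2.69 before it, so no order is read from the level.

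Epha4, a receptor that binds both ligand classes, had 9 UMIs in all. It was found in 7 of 316 NA1a neurons, with 0.024 to 0.039 UMIs per 10000 in each of the 5 mice, and in 0 of 311 NA1b neurons, a count that allows shares up to 0.965%. NA1a neurons were the deeper ones (median 6524.5 against 3252 UMIs), and after thinning Epha4 was found in 2 of 308 and 0 of 248 neurons. Epha4 was under the minimum level, and the share of all genes without overlap in this pair with no minimum is given with Efnb3 above. No difference is read from so few UMIs. Epha3, another ephrin-A receptor, had 12 UMIs, of which 10 were in 8 of 62 Ach2 neurons (12.9%; exact interval 5.74% to 23.9%), and none of those 8 neurons had a recurring barcode. In Ach2 it was 0.086 in mouse 1 and 0.654 in mouse 4, and 0.112 and 0.855 without recurring barcodes. It was found in 0 of 316 NA1a, 0 of 311 NA1b, 0 of 239 NA1c and 0 of 175 NA2 neurons, which allows shares of up to 0.949%, 0.965%, 1.26% and 1.71%.

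Efnb2, a transmembrane ligand known from arteries as well as from axons, was thinly spread. It had 82 UMIs and was found in 24 of 316 NA1a, 20 of 311 NA1b, 12 of 239 NA1c, 5 of 175 NA2 and 12 of 99 NA3 neurons, and in 0 of 64 Ach1 neurons, where a share of up to 4.69% remains possible. Efna3, an ephrin-A ligand, had 7 UMIs in 7 neurons. Differences between subtypes were not tested for either gene. Intervals and limits for counts of neurons cover counting error only.

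To ask whether the members moved with Npy inside a subtype, neurons of each mouse and subtype were split at the median of Npy into Npy-high and Npy-low neurons, which were compared with limma, with the mouse as a block and p-values adjusted by Benjamini-Hochberg over all genes tested. This contrast was not used to choose the members. Only Epha5 and Efna5 could be tested, and neither was called in any subtype. In NA1a limma called 1 of 3804 genes (0.0263%), in NA1b 0 of 3896, in NA1c 0 of 3915 and in NA2 17 of 3173 (0.536%), with 417, 246, 283 and 281 genes at an unadjusted p under 0.05. The gene called in NA1a was S100a6, named after its value was seen. The counts rested on single mice, being 9 in NA1a without mouse 5, 16 in NA1b without mouse 3 and 33 in NA2 without mouse 2, and NA2 had 6 without recurring barcodes.

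In NA1a, Epha5 was 22.0 ± 5.59 UMIs per 10000 in Npy-high and 21.4 ± 6.28 in Npy-low neurons, a log2 difference of 0.06 ± 0.13 (SE; limma adjusted p = 0.926), with Npy-high neurons higher in 4 of 5 mice. In NA1b it was 7.13 ± 1.95 and 5.61 ± 1.97, a log2 difference of 0.36 ± 0.20 (limma adjusted p = 0.768), higher in 3 of 5 mice. The Npy-low neurons of NA1b were deeper in mice 1, 3, 4 and 5 but not in mouse 2 (median 2587 against 2636 UMIs). The median over mice of these depths was 6977 against 3536.5 UMIs. After thinning, Epha5 was 7.35 ± 2.35 in Npy-high and 5.69 ± 1.98 in Npy-low neurons, a log2 difference of 0.38 (limma adjusted p = 0.912). In NA1c it was 14.5 ± 3.55 and 15.7 ± 7.35, a log2 difference of −0.03 ± 0.18 (limma adjusted p = 0.985). Npy-high neurons were higher in 4 of 5 NA1c mice, and without mouse 3 the difference was 0.14.

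In NA2, Epha5 was 6.82, 2.94, 11.4, 5.28 and 6.44 UMIs per 10000 in the Npy-high neurons of mice 1 to 5 and 4.34, 3.87, 1.77, 1.79 and 4.97 in the Npy-low neurons. The former were higher in 4 of 5 mice, mouse 2 being the exception, and the log2 difference was 0.95 ± 0.33 (limma adjusted p = 0.385). It was called without mouse 2 (log2 difference 1.28, limma adjusted p = 0.00653) and with the top 30% of Npy set against the bottom 30% (log2 difference 1.90, higher in 5 of 5 mice, limma adjusted p = 0.0147), and adjusted p ranged from 0.00653 to 0.709 over the alternatives. Without recurring barcodes it was 0.79 (limma adjusted p = 0.504, n = 4), higher in 2 of 4 mice. Each side of the split held as few as 7 NA2 neurons in a mouse.

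**Figure D5:**
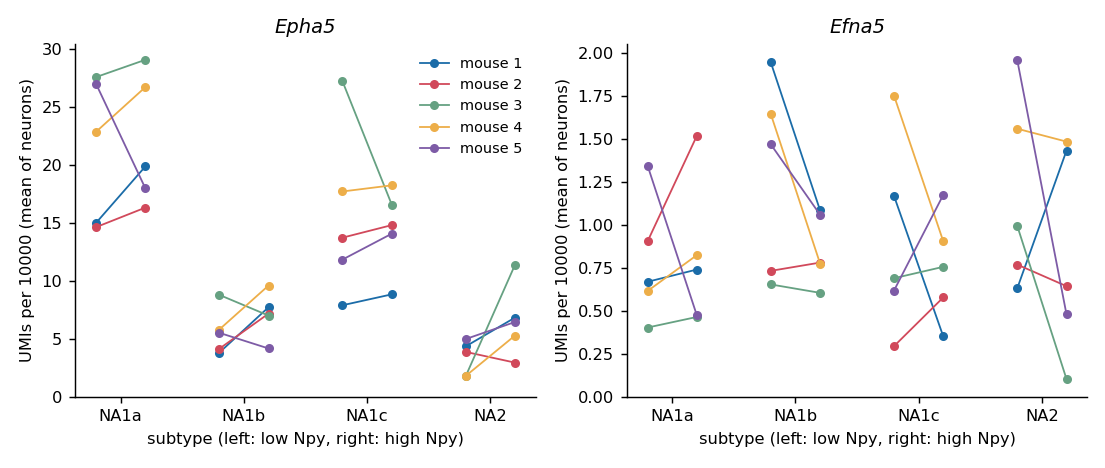
Mean UMIs per 10000 of Epha5 (left) and Efna5 (right) in the Npy-low and Npy-high neurons of each subtype, with 1 line per mouse. The lines for Epha5 rise in 4 of 5 mice in NA1a, NA1c and NA2 and in 3 of 5 in NA1b, with the steepest going from 1.77 to 11.4 in NA2, and those for Efna5 run both ways.

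The test of the difference between subtypes in the Npy effect called neither member in any of 6 pairs of subtypes. For Epha5 the largest was between NA1c and NA2, −0.98 ± 0.37 on the log2 scale (limma adjusted p = 0.202 over 3826 genes). Efna5 was not called either. Its log2 differences between Npy-high and Npy-low neurons were 0.0040 (NA1a), −0.45 (NA1b), −0.13 (NA1c) and −0.70 (NA2). The limma adjusted p were 0.997, 0.786, 0.967 and 0.754 in turn. Without recurring barcodes the NA2 difference was −1.53 ± 0.58 (SE; limma adjusted p = 0.401), with Npy-high neurons higher in 0 of 4 mice.

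The genes that carry Eph and ephrin signals inside the cell were counted from 3 fixed lists. Of 32 forward signalling genes, which turn receptor activity into changes of the cytoskeleton, 11 to 17 passed the minimum level, depending on the pair of subtypes. Their most abundant members included Cfl1, which severs actin filaments (9.12 ± 1.21 UMIs per 10000 in NA1a, 8.52 ± 1.37 in NA1b) and the small GTPases Cdc42 (2.05 ± 0.495 and 1.51 ± 0.328) and Rhoa (1.10 ± 0.151 and 1.20 ± 0.240). Limk1, a kinase that acts on cofilin, was lower in NA1a than in NA1b (1 of 15), Limk1 and the kinase Abl2 were lower in NA1a than in NA1c (2 of 16), and 0 of 17 separated NA1b from NA1c, beside 8.28%, 9.36% and 2.95% of all genes in these pairs. Limk1 and Abl2 are named after their values were seen.

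Against NA1a, the list gave higher counts in NA2 and NA3, as did all genes. In NA2, 3 of 11 were higher without overlap (Rhoa at 3.03 ± 0.691, Cdc42 at 4.67 ± 1.39, and Rac1) and 2 were lower (Vav2 and Rock1). Without recurring barcodes only Rac1 remained higher, with Vav2 and Rock1 still lower. In NA3, Rhoa was higher (3.53 ± 1.10) and Vav2, Kalrn, Chn1 and Cfl1 (6.38 ± 1.40) were lower, 5 of 13 in all. These shares stand beside 35.0% and 27.7% of all genes, and the median log2 difference of the list was 0.025 in NA2 and −0.25 in NA3 against 0.19 and −0.22 over all genes. Against NA1b, NA2 had 2 of 13 higher and 5 lower (2 and 6 of 15 without recurring barcodes), and against NA1c 1 of 11 higher and 2 lower (0 and 3 of 14). The shares of all genes in these pairs were 41.7% and 42.0%, and 37.5% in each without recurring barcodes. Vav2, Rock1, Kalrn, Chn1 and Rac1 are named after their values were seen.

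Of 9 genes of reverse signalling through ephrin-B, 3 passed the minimum level, Rgs3, Sdcbp and Pick1. Rgs3, which binds the tail of ephrin-B, was lower in NA3 (0.458 ± 0.272, n = 3) than in NA1a (1.20 ± 0.277, n = 5) without overlap. The neuron markers were also lower in NA3, as given above. In the other 6 pairs 0 of 3 separated the subtypes with all neurons. Of 7 genes that cleave or dephosphorylate Eph receptors and ephrins, 3 or 4 passed. Acp1, a phosphatase known to act on Eph receptors, was 3.24 ± 0.469 in NA2, above NA1a (1.25 ± 0.464), NA1b (0.748 ± 0.324) and NA1c (0.865 ± 0.179) without overlap, also without recurring barcodes. Ptpn1 was lower in NA2 (0.393 ± 0.265) than in NA1a (1.31 ± 0.343), which overlapped without recurring barcodes. With all neurons, 0 genes of this list separated the remaining 4 pairs. Of all genes, 35.0%, 41.7% and 42.0% did not overlap between NA2 and NA1a, NA1b and NA1c in turn, and 27.7% between NA3 and NA1a, so nothing is read from these counts about the lists.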

How the data were processed

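Single-cell RNA of stellate ganglia was measured in 8 mice of 1 condition. Reads had been aligned by the authors to GRCm38 plus GFP (Cell Ranger 2.1.1 per the labels). The authors kept cells with over 500 and under 6000 genes, under 20000 UMIs and under 15% mitochondrial RNA, and clustered and named the neurons. No doublet removal is named, and none was done here. The table as deposited holds natural log values, of UMIs per 10000 plus 1, and UMIs were recovered from them, with 100% of nonzero values within 0.01 of a whole number. No column of another sample was present (0). The deposited subtype and mouse names were used, and labels give each mouse as its own sample.

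The 10 members and all lists were chosen with earlier results of these data known. Values per mouse are means over neurons (at least 10), and differences between subtypes are on log2(mean + 0.1). A gene was compared when its mean over profiles was at least 0.5. Two-sided tests used limma 3.58.1 (R 4.3.3) with an intensity trend between neurons above and below the median of Npy within a mouse and subtype, leaving out Npy itself and the middle neuron of an odd number. Both sides of a split are paired since they come from the same animal, and the mean correlation of their deviations was 0.172 (NA1a), 0.203 (NA1b), 0.0992 (NA1c) and 0.0644 (NA2). Named genes are all members, the rest of the family by level, up to 4 genes per list by mean level (1 of them is not reported here), and for likeness the 3 highest correlations. On simulated data at adjusted p below 0.05, the NA1a step (3765 genes) recovered 39.5% of genes changed 2-fold and 98.7% of those changed 4-fold, and the NA2 step (3174 genes) 12.5% and 64.0%. Intervals are exact (Clopper-Pearson) at 95%, and a count of 0 allows 3 of the total. Alternatives covered the minimum level, pseudocount, thinning to 2000 UMIs (813 of 1002 matched neurons kept), minimum of neurons, summed UMIs, the block, Npy limits and each mouse left out. Leaving out recurring barcodes was added after the data were seen. Python 3.11.15, NumPy 2.4.6, pandas 2.3.3, SciPy 1.17.1 and matplotlib 3.10.9 were used.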

Additional observations from a re-analysis of the deposited data

Results flagged for a closer look

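Of 37 sets of 5 mice tested, 7 had 1 mouse far from the rest. Chance gives about 1 in 20 for values without ties, a rate that does not hold for 6 of the 7, where 1 mouse was above 0 and the other 4 were at 0, so that the gap was the whole range by construction. These were Epha4 in NA1c (0.0231 UMIs per 10000), Ephb2 in NA2 (0.0470), Efna3 in NA1b (0.174) and in NA1c (0.0377), and Efnb1 in NA1a (0.0483) and in NA2 (0.0631). The remaining set was Efnb2 in NA1b, where mouse 5 had 0.252 and the gap to the next mouse was 0.712 of the range. These genes had at most 151 UMIs in all neurons, and no cause was tested.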

How the results depend on the processing

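Of the differences of Epha5 and Efna5 between subtypes recomputed with all mice, 65 moved by less than their spread over mice and 5 by more, namely Epha5 between NA3 and NA1a under 4 settings (−1.76 to −2.18 against −1.92) and Efna5 between NA2 and NA1c with thinning (−0.26 against 0.26). All 66 recomputed without 1 mouse moved by less. The number of members without overlap changed with no minimum level, to 3 (NA1a and NA1b), 1 (NA1a and NA1c), 2 (NA1b and NA1c), 3 for NA2 with NA1a, 3 for NA2 with NA1b, 2 for NA2 with NA1c and 3 for NA3 with NA1a, by the construction of that setting, since genes of few UMIs then count. The shares of all genes were then 2.98%, 2.77%, 1.41%, 12.7%, 13.8%, 12.7% and 12.9% in the same order of pairs. They include genes with few or no UMIs and lie below the shares past the minimum level in every pair. Leaving out 1 mouse gave 1 to 2 members for NA3 and NA1a, with 2 (Epha5 and Efna5) without mouse 3.

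The number of genes called by Npy moved more. In NA1a the count was 1, and it was 0 without the replicate block, 7 with a pseudocount of 1, 0 with thinning, 0 with the top and bottom 30%, 0 with summed UMIs and 0 to 9 without 1 mouse (2 without mouse 1, 9 without mouse 5, 0 without mouse 2 or 4). In NA1b it was 0, and it was 5 with a pseudocount of 1, 1 with summed UMIs and 0 to 16 without 1 mouse (16 without mouse 3). In NA1c it was 0, and it was 1 with a minimum of 0.2, 1 with a pseudocount of 1, 7 with the top and bottom 30%, 2 with summed UMIs and 0 to 1 without 1 mouse (1 without mouse 1). In NA2 it was 17, and it was 26 with a pseudocount of 1, 2 with thinning, 31 with the top and bottom 30%, 6 without recurring barcodes and 10 to 33 without 1 mouse (33 without mouse 2, 10 without mouse 3, 11 without mouse 5). Without the replicate block 17 genes were called in NA2, 0 in NA1b and 0 in NA1c, and neither member was called. The sign of the Efna5 difference turned in NA1a with thinning (−0.28) and with the top and bottom 30% (−0.36), in NA1c with the top and bottom 30% (0.11) and in NA2 with thinning (0.27). Without 1 mouse, Epha5 ranged from −0.032 to 0.21 in NA1a and from −0.10 to 0.14 in NA1c, and Efna5 from −0.17 to 0.34 in NA1a and from −0.37 to 0.21 in NA1c. The causes were not tested.

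In each pair of subtypes compared, 8 of the 10 genes fell under the minimum level, and their values rest on 7 to 151 UMIs each. NA3 rests on 3 mice, Ach2 on 2 and Ach1 on 1, and all values over mice come from batch 2.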

Other observations

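Among the family genes outside the 10, Epha10, an Eph receptor whose kinase domain lacks activity, was the most abundant, with 678 UMIs over 1303 neurons, close to the 710 of Efna5. Its level was 1.80 ± 0.43 UMIs per 10000 in NA1c, 1.20 ± 0.58 in NA1a, 0.917 ± 0.604 in NA1b and 0.132 ± 0.166 in NA2 (n = 5 mice each; 0.154 in NA2 without recurring barcodes, n = 4) and 0.251 ± 0.160 in NA3 (n = 3). NA2 ranged from 0 to 0.397, below all 5 NA1a mice (0.618 to 1.98) and all 5 NA1c mice (1.35 to 2.45), while NA1b reached down to 0.351. Of all genes, 35.0% did not overlap between NA2 and NA1a and 42.0% between NA2 and NA1c, so this was common here. Ephb6, the other receptor without kinase activity, had 192 UMIs and ranged from 0.148 ± 0.211 in NA2 to 0.487 ± 0.090 in NA3 among the noradrenergic subtypes, with 0.102 ± 0.085 in Ach2 (n = 2). The remaining 9 family genes had between 1 UMI (Epha1) and 40 UMIs (Efna1).

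The genes whose log2 levels followed Epha5 most closely over 23 profiles of a subtype in a mouse were Nrp1, a semaphorin co-receptor (Pearson r = 0.885), Pcdh9, a protocadherin (0.879), and Prom1 (0.871), among 3827 genes. For Efna5 they were Ppp2r2c (0.699), Habp4 (0.677) and Ndrg4 (0.670). The order was not kept without recurring barcodes (22 profiles). There r with Epha5 was 0.795 for Nrp1, 0.893 for Pcdh9 and 0.864 for Prom1. With Efna5 it was 0.730 for Ppp2r2c, 0.672 for Habp4 and 0.776 for Ndrg4. Epha5 and Efna5 had r = −0.13 with each other, Epha5 and Epha10 had 0.654, and Epha5 and Npy had 0.603 (0.589 without recurring barcodes). Profiles of 1 mouse share a library and the subtypes differ in depth, so these values describe the profiles only.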
